A study of Mus musculus with 24 samples.

Results

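The mineralocorticoid receptor pathway was followed through 9 genes in microdissected tubules of the mouse distal nephron. They are the receptor genes Nr3c2 and Nr3c1, the steroid dehydrogenase gene Hsd11b2, the induced genes Sgk1, Tsc22d3 and Usp2, the ubiquitin ligase genes Nedd4l and Nedd4, and the scaffold gene Cnksr3. The members were taken by name, as all probe sets whose only gene symbol was 1 of the 9. They make up 9 of the 18194 genes measured and 25 of the 34958 probe sets with 1 symbol. A gene's main value is that of its probe set with the highest mean over the 24 arrays.

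The arrays carried RNA of tubules dissected from collagenase-treated left kidneys of male C57BL/6J mice of 25 to 30 g, with no genetic change or treatment named. The mice had lived on standard chow for 2 weeks in 12 h of light and 12 h of dark. Distal convoluted tubules with connecting tubules (DCT/CNT) and cortical collecting ducts (CCD) were sampled every 4 h, at zeitgeber times ZT0 (lights on), ZT4, ZT8, ZT12 (lights off), ZT16 and ZT20. Each of these 12 groups held 2 pools, built from the RNA of 5 animals at a time, with 10 ng amplified per array. The labels do not say whether the pools of a time share animals, so the spread between pools that the p-values use may be technical. In the rhythm tests with a 24 h curve, departures of the group means from that curve enter the error as well. Whether DCT/CNT and CCD of a time share animals is not stated either, and the tests between segments treat them as separate. The age of the mice is not given in the labels.

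Aldosterone binds the mineralocorticoid receptor (Nr3c2) in principal cells and in cells of the connecting tubule and late distal convoluted tubule, and the receptor then acts on genes as a transcription factor. Glucocorticoids bind the same receptor as well as the glucocorticoid receptor (Nr3c1), and the enzyme 11-beta-hydroxysteroid dehydrogenase type 2 (Hsd11b2) inactivates them inside these cells. The kinase Sgk1 phosphorylates the ubiquitin ligase Nedd4-2 (Nedd4l) and so keeps it from removing the epithelial sodium channel ENaC from the apical membrane. The leucine zipper protein GILZ (Tsc22d3), the deubiquitinase Usp2 and the scaffold protein Cnksr3 also act on this ubiquitin step. Glucocorticoid release itself follows the time of day, with a maximum near the start of activity, which for a mouse is lights off.

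Segment labels were checked against cell type markers. As deposited, all 3 measured distal convoluted tubule markers and all 3 connecting tubule markers were higher in DCT/CNT, while all 7 principal cell markers were lower there. Of the latter, Scnn1g differed by only -0.00093 after quantile and 0.017 after cyclic loess normalisation, called in neither. The convoluted tubule list averaged 9.37 log2 units in DCT/CNT (7.81 to 10.7 per array) and 5.81 in CCD (5.40 to 6.30). Its lowest and its highest DCT/CNT array were both pools of ZT16, so these pools differed in this list, and ZT8 held a low pair with 7.93 and 8.03. Proximal tubule markers, of another nephron segment, averaged 7.90 in DCT/CNT (7.19 to 8.96 per array) and 8.08 in CCD (7.33 to 8.81). Their highest group mean fell at ZT12 in both segments, at 8.87 in DCT/CNT and 8.39 in CCD. Thick ascending limb markers averaged 8.12 in DCT/CNT (7.27 to 8.58 per array) and 7.41 in CCD (6.31 to 8.30). Stromal markers averaged 7.06 in DCT/CNT and 6.47 in CCD, endothelial markers 8.15 and 8.20, and leukocyte markers 6.52 and 6.65. The part of these differences in the results on time of day and between segments was not tested. The middle 50% of probe sets spanned 3.32 to 3.65 log2 units on DCT/CNT arrays and 4.08 to 4.28 on CCD arrays, which bears on every comparison between segments.

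Of the 9 genes, Tsc22d3 and Usp2 changed with the time of day, and they did so in both segments. Both rose around lights off and were high early in the dark phase, with Usp2 highest at ZT12 and Tsc22d3 highest at ZT16. Sgk1 was also highest at ZT16 in both segments, with a smaller swing that did not pass the test in either segment alone. For the receptors, Hsd11b2, the ligases and Cnksr3 no 24 h rhythm passed the test. Rhythm was tested with limma's moderated F test on the cosine and sine terms of a 24 h curve, adjusted over all 18194 genes and called at an adjusted p under 0.05. The call reached 2 of the 9 genes in DCT/CNT, where 6.57% of all genes were called, and 2 of 9 in CCD, where 2.47% were called. An unadjusted p under 0.05 was reached by 4 of the 9 in DCT/CNT and by 3 in CCD. The share of all genes below that threshold was not counted, so the unadjusted counts here and further on lack a background. The median amplitude, the height of the fitted peak over the mean, was 0.18 log2 units over the 9 genes and 0.13 over all genes in DCT/CNT. In CCD the corresponding medians were 0.13 and 0.10.

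Usp2 (chr9:44067021-44095627, RefSeq gene bounds in GRCm38.p6, as for all genes here) encodes a deubiquitinase with a short isoform that aldosterone induces in collecting duct cells. In DCT/CNT, the pools of Usp2 (probe set 1417168_a_at) read 9.61 and 9.75 log2 units at ZT0, 9.62 and 9.70 at ZT4, 9.92 and 9.87 at ZT8, 10.71 and 10.95 at ZT12, 10.65 and 10.46 at ZT16, and 10.02 and 10.29 at ZT20. In CCD they read 9.11 and 8.79 at ZT0, 9.43 and 9.60 at ZT4, 9.57 and 9.75 at ZT8, 10.69 and 10.46 at ZT12, 10.03 and 10.26 at ZT16, and 9.83 and 9.63 at ZT20. In each segment both ZT12 pools lay above every pool of the other times. The step from ZT8 to ZT12 was the steepest part of the day, and CCD was lowest at ZT0. Between the lowest and the highest group mean Usp2 rose 2.26-fold in DCT/CNT (ZT4 to ZT12) and 3.10-fold in CCD (ZT0 to ZT12). The fitted amplitude in DCT/CNT was 0.59 (SE 0.086), with a peak at ZT 14.3 (SE 0.554 h) and an adjusted p of 0.000833 in limma's moderated F test. In CCD it was 0.67 (SE 0.086), with a peak at ZT 13.2 (SE 0.492 h) and a limma adjusted p of 0.000324. The other probe set of Usp2, 1417169_at, had amplitudes of 0.57 in DCT/CNT and 0.68 in CCD, both called.

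Tsc22d3 (chrX:140539528-140600522) encodes GILZ, a protein induced by both aldosterone and glucocorticoids. In DCT/CNT, its pools (probe set 1420772_a_at) read 7.87 and 8.23 log2 units at ZT0, 7.52 and 7.69 at ZT4, 7.53 and 7.48 at ZT8, 8.20 and 8.14 at ZT12, 8.55 and 8.22 at ZT16, and 8.31 and 8.39 at ZT20. In CCD they read 8.53 and 8.38 at ZT0, 8.30 and 8.24 at ZT4, 8.26 and 8.18 at ZT8, 8.76 and 9.25 at ZT12, 9.43 and 9.54 at ZT16, and 9.28 and 9.43 at ZT20. The light-phase pools of ZT4 and ZT8 lay below all dark-phase pools in each segment. As with Usp2, the steepest rise was from ZT8 to ZT12, but the highest group mean came at ZT16, and the ZT20 mean was only slightly below it. In CCD the fall of the group mean from 9.35 at ZT20 to 8.46 at ZT0 was steeper than that rise. Tsc22d3 rose 1.85-fold in DCT/CNT and 2.40-fold in CCD between its group means at ZT8 and ZT16. The fitted amplitude in DCT/CNT was 0.47 (SE 0.067), with a peak at ZT 17.8 (SE 0.544 h) and an adjusted p of 0.000701 in limma's moderated F test. In CCD the amplitude was 0.71 (SE 0.067), with a peak at ZT 16.9 (SE 0.363 h) and a limma adjusted p of 5.33e-06. Of the other 3 probe sets, 1425281_a_at was rhythmic in both segments, with amplitudes of 0.40 in DCT/CNT and 0.37 in CCD. Neither 1425557_x_at nor the dim 1444365_at was called in either segment.

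Sgk1 (chr10:21882184-21999903) encodes the kinase through which aldosterone acts early on sodium transport. In DCT/CNT, its pools (probe set 1416041_at) read 11.39 and 11.93 log2 units at ZT0, 11.98 and 12.04 at ZT4, 11.90 and 11.84 at ZT8, 12.14 and 12.24 at ZT12, 12.30 and 12.21 at ZT16, and 11.97 and 11.88 at ZT20. In CCD they read 12.61 and 12.46 at ZT0, 12.93 and 12.95 at ZT4, 12.78 and 12.66 at ZT8, 13.12 and 13.03 at ZT12, 13.23 and 13.28 at ZT16, and 12.83 and 12.54 at ZT20. The shape was alike in the segments: low at ZT0, a first high at ZT4, and the highest values at ZT12 and ZT16. The ZT12 and ZT16 pools lay above all others in each segment. The ZT0 and ZT16 group means lay 1.51-fold apart in DCT/CNT and 1.65-fold apart in CCD. A 24 h curve gave an amplitude of 0.23 (SE 0.081) with a peak at ZT 13.5 (SE 1.36 h) in DCT/CNT, and limma's moderated F test gave an adjusted p of 0.170. In CCD the amplitude was 0.25 (SE 0.081), the peak ZT 13.3 (SE 1.22 h) and the limma adjusted p 0.221. Without the ZT4 arrays the rhythm was called in both segments, with limma adjusted p-values of 0.0424 in DCT/CNT and 0.0324 in CCD. That was the only 1 of 6 omissions of a time that called Sgk1 in either segment, and 0 of 24 omissions of an array did. A fit with 1 rhythm common to both segments, chosen after the data were seen, gave an amplitude of 0.24 (SE 0.055), a peak at ZT 13.4 (SE 0.874 h) and a limma adjusted p of 0.0158. It counted the DCT/CNT and CCD pools of a time as separate samples, so its SE and p may be too small if the segments share animals. That fit called 3 of the 9 genes, Sgk1, Tsc22d3 and Usp2, and 10.5% of all genes. A limma F test over the group means, with no curve assumed, also called Tsc22d3 and Usp2 in both segments, against 2.47% of all genes in DCT/CNT and 0.643% in CCD. It gave Sgk1 adjusted p-values of 0.117 in DCT/CNT and 0.101 in CCD.

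**Figure D1:**
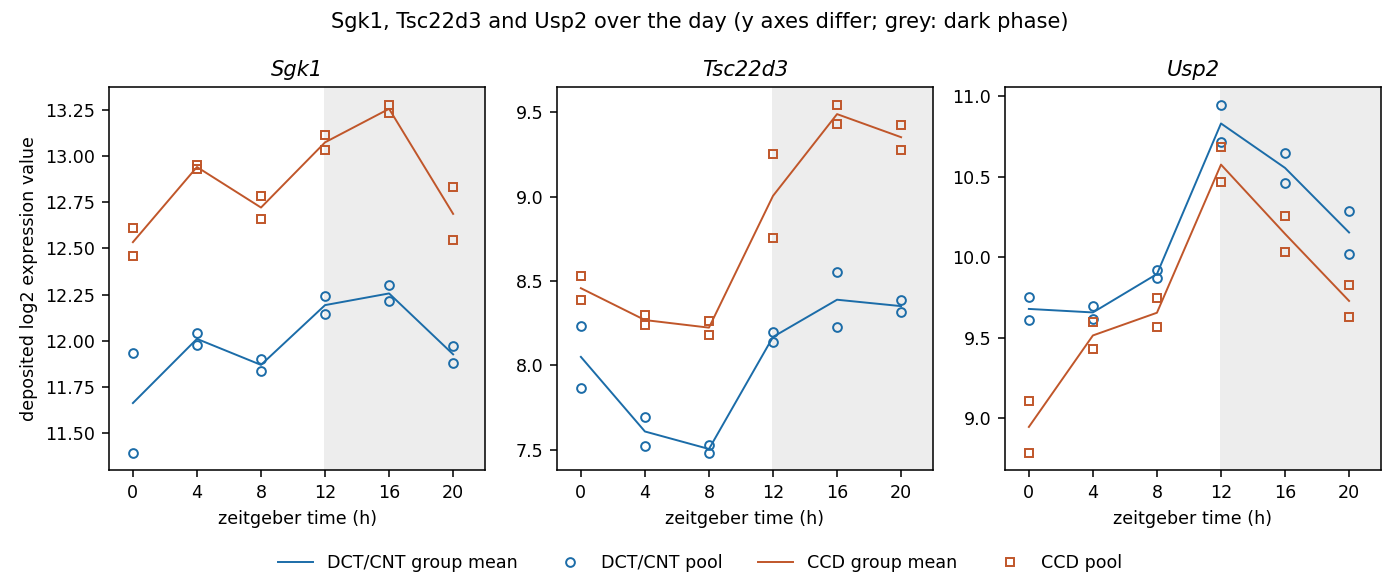
Deposited log2 values of Sgk1, Tsc22d3 and Usp2 (y axis) against zeitgeber time in hours (x axis) for DCT/CNT (blue circles) and CCD (orange squares). Points are single pools, lines join the means of 2 pools, and grey marks the dark phase. Usp2 is highest at ZT12 and Tsc22d3 and Sgk1 are highest at ZT16 in both segments, while Sgk1 has a further rise at ZT4.

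Upstream sequence is shown for the genes that were high together early in the dark phase. RefSeq promoters (assembly GRCm38.p6) were at hand for 6 of the 9 genes, with 14 annotated starts in all, and none for Nr3c1, Hsd11b2 and Nedd4l. The 250 bases before each start were searched on both strands for the E-box CACGTG and its variant CACGTT, the D-box TTANGTAA, the glucocorticoid response half-site AGAACA and the nuclear receptor half-site AGGTCA. E-boxes bind CLOCK and BMAL1, D-boxes bind DBP and related factors, and AGAACA, which reads TGTTCT on the other strand, is the half-site that the mineralocorticoid and glucocorticoid receptors share. Below are the upstream bases of 1 of the 6 Sgk1 starts (chr10:21993640-21993889, plus strand), 1 of the 3 Tsc22d3 starts (chrX:140600523-140600772, minus strand) and the only Usp2 start at hand (chr9:44084670-44084919, plus strand). The Sgk1 and Tsc22d3 starts were chosen because they held the most matches of their gene. They are written 5′ to 3′ on the strand of the gene, and capitals mark the matches.
Sgk1: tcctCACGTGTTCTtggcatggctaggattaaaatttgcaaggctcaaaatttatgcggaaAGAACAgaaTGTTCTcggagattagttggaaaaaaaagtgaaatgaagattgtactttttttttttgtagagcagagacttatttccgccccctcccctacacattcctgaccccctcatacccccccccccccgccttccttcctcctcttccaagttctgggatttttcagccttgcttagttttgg
Tsc22d3: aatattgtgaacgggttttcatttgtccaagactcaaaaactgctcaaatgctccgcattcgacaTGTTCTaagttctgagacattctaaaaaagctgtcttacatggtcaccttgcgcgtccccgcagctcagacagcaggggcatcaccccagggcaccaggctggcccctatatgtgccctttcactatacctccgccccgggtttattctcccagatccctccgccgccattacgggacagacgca
Usp2: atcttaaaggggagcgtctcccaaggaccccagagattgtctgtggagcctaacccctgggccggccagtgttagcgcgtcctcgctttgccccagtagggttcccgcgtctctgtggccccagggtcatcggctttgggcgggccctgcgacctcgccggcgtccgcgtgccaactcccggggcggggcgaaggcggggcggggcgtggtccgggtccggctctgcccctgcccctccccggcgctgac
The Sgk1 stretch held the E-box 246 to 241 bases before the start, overlapping an AGAACA match on the other strand at 242 to 237. It also held AGAACA at 189 to 184 and, on the other strand, at 180 to 175, so that these face each other with 3 bases between them. This spaced pair, looked for after the matches were seen, occurs in 3 of the 32851 promoters in the table (0.00913%), this one included. The Tsc22d3 stretch held AGAACA on the opposite strand at 185 to 180, and the Usp2 stretch held none of the 5 motifs. That Usp2 stretch lies inside the gene bounds, which begin at 44067021, and the bases before that position were not searched. The other 2 Tsc22d3 starts held no match, nor did the last Sgk1 start (chr10:21994416-21994665), and the other 4 Sgk1 starts held 1 each. Genes without a called rhythm also had matches, with an E-box before Cnksr3 and a CACGTT and an AGAACA before the 2 Nedd4 starts. Of all promoters 6.02% held the E-box, 3.85% its variant, 2.06% the D-box, 16.1% AGAACA and 14% AGGTCA. A match describes the letters only, and binding was not measured.

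The receptor genes Nr3c2 (chr8:76898083-77245012) and Nr3c1 (chr18:39410545-39519421) showed no called change over the day. The Nr3c2 values (probe set 1435991_at) ran from 8.77 to 9.18 in DCT/CNT, with a median of 9.09, and from 9.41 to 9.74 in CCD, with a median of 9.51. Group means were highest at ZT4 and lowest at ZT20 in both segments, 1.20-fold apart in DCT/CNT and 1.13-fold apart in CCD. The fitted Nr3c2 amplitude was 0.11 (SE 0.050; limma adjusted p 0.285) in DCT/CNT and 0.061 (adjusted p 0.830) in CCD. Nr3c1 (probe set 1460303_at) ran from 7.82 to 8.89 in DCT/CNT, with a median of 8.38, and from 8.03 to 8.64 in CCD, with a median of 8.28. Both ZT4 pools of DCT/CNT were high, at 8.89 and 8.74, but the pools of ZT8 lay as far apart as 8.02 and 8.83. Its fitted amplitude in DCT/CNT was 0.28 (SE 0.091), peaking at ZT 4.23 (SE 1.24 h), with a limma adjusted p of 0.124. Nr3c1 was called in DCT/CNT in 0 of 6 omissions of a time and in 1 of 24 omissions of an array. The latter was without the first ZT8 pool of DCT/CNT (limma adjusted p 0.0229). The convoluted tubule marker mean of that pool was the second lowest of the segment, at 7.93, and that of the other ZT8 pool was close, at 8.03. In CCD the Nr3c1 amplitude was 0.13 (limma adjusted p 0.785). With all arrays, none of the 6 Nr3c1 probe sets was called rhythmic in either segment. In DCT/CNT the other probe sets had amplitudes of at most 0.17, with peaks at ZT 22.8, 1.04, 1.17, 6.44 and 16.2.

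Hsd11b2 (chr8:105518746-105523988), whose product protects the mineralocorticoid receptor from glucocorticoids, had the smallest group-mean range of the 9 genes in each segment. Its values (probe set 1416761_at) spanned 13.37 to 13.53 in DCT/CNT, with a median of 13.46, and 13.38 to 13.62 in CCD, with a median of 13.55. The highest and lowest group means lay 1.07-fold apart in DCT/CNT and 1.11-fold apart in CCD. The mean of this probe set, 13.5, lay above those of 99.9% of all probe sets. Whether the arrays resolve changes at that level was not tested. The amplitudes were 0.053 (limma adjusted p 0.493) in DCT/CNT and 0.056 (adjusted p 0.665) in CCD.

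Nedd4l (chr18:64884480-65217826), the ligase that ubiquitinates ENaC, ran from 9.73 to 10.16 in DCT/CNT, with a median of 9.90, and from 10.73 to 11.01 in CCD, with a median of 10.89 (probe set 1423269_a_at). Its highest group mean was at ZT0 and its lowest at ZT20 in both segments, 1.30-fold apart in DCT/CNT and 1.15-fold apart in CCD. The amplitude was 0.11 (SE 0.048; limma adjusted p 0.284) in DCT/CNT and 0.051 (adjusted p 0.874) in CCD. None of its 6 probe sets was called rhythmic in either segment. Nedd4 (chr9:72662331-72749851), a related ligase with other substrates, ran from 10.94 to 11.16 in DCT/CNT and from 11.13 to 11.35 in CCD (probe set 1421955_a_at). Its amplitude was 0.060 (limma adjusted p 0.488) in DCT/CNT and 0.049 (adjusted p 0.790) in CCD. Cnksr3 (chr10:7119061-7212237) ranged from 5.85 to 7.32 in DCT/CNT and from 6.46 to 7.41 in CCD (probe set 1433983_at). Its amplitude was 0.18 (SE 0.14; limma adjusted p 0.655) in DCT/CNT and 0.15 (adjusted p 0.883) in CCD. With an error of this size a rhythm as large as that of Sgk1 was not detectable for Cnksr3.

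**Figure D2:**
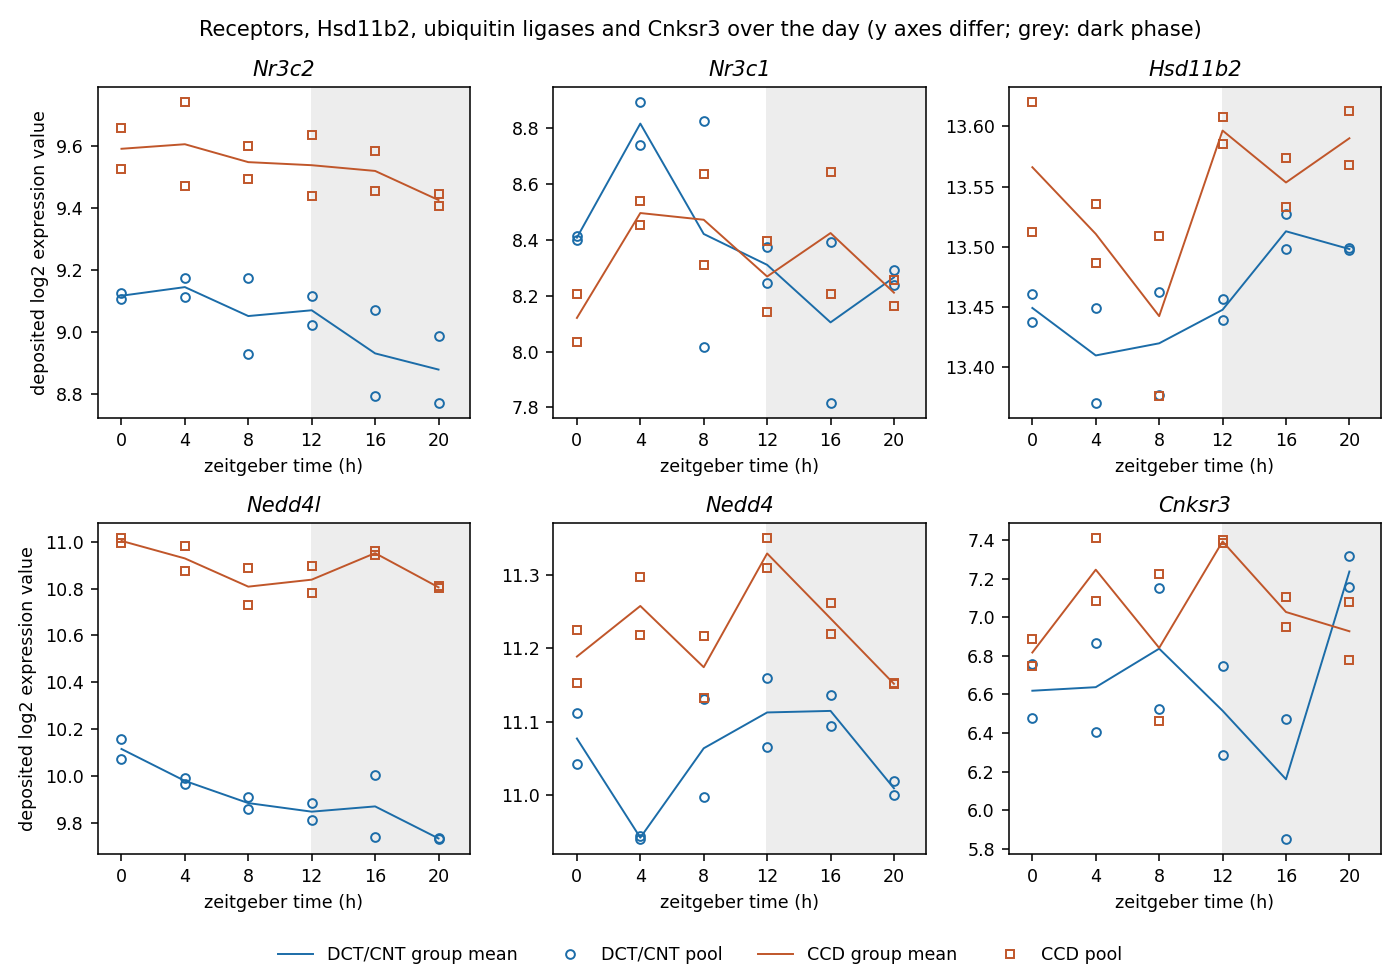
Deposited log2 values (y axis) of the receptor genes Nr3c2 and Nr3c1, of Hsd11b2, of the ligase genes Nedd4l and Nedd4, and of Cnksr3 against zeitgeber time in hours (x axis). Points are single pools of DCT/CNT (blue circles) or CCD (orange squares), lines join group means, and the y axes differ. As deposited, the Nr3c2, Nedd4l and Nedd4 pools of the segments do not overlap at any time, whereas the Nr3c1 and Cnksr3 pools cross.

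**Figure D3:**
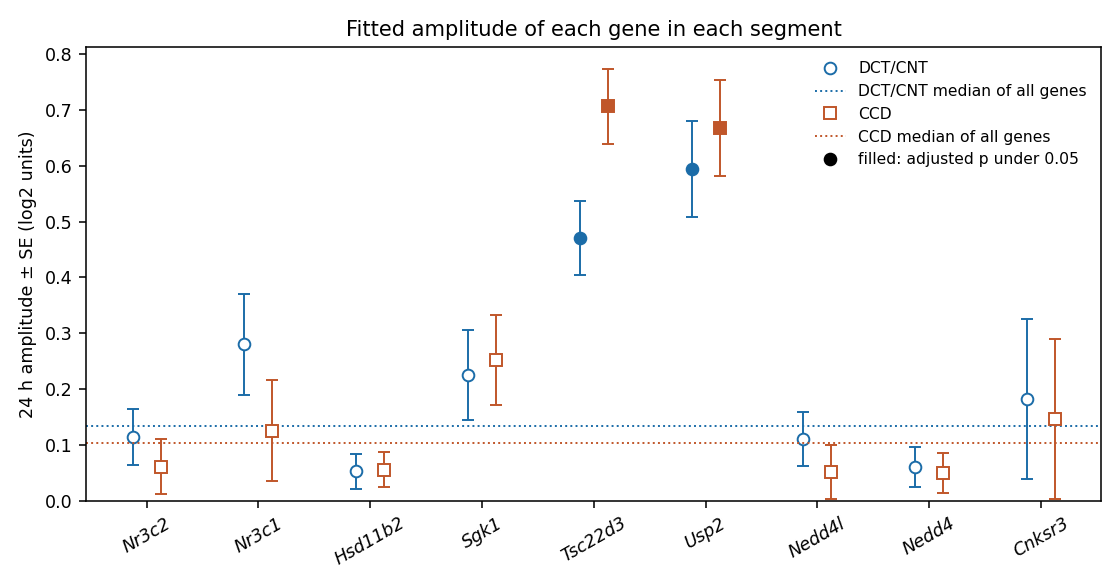
Fitted 24 h amplitude with its SE in log2 units (y axis) for each gene (x axis) in DCT/CNT (blue circles) and CCD (orange squares). Filled points passed an adjusted p of 0.05 and dotted lines mark the median amplitude of all genes. Tsc22d3 and Usp2 stand between 0.47 and 0.71, Sgk1 at 0.23 and 0.25, and all others at 0.28 or less.

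The rhythms of the segments were then compared with each other. The rhythm difference was called for 0 of the 9 genes with limma's moderated F test, and for 0.011% of all genes, which is 2 genes. At an unadjusted p under 0.05 it held 1 of the 9, Tsc22d3 (unadjusted p 0.0333, adjusted p 0.534), and the segment by time interaction over group means also called 0. The Tsc22d3 amplitude was smaller in DCT/CNT than in CCD by 0.24 (SE 0.095) in the fit, and its peak was 0.852 h later (SE 0.654). Both directions turned in its other rhythmic probe set, 1425281_a_at, with amplitudes of 0.40 in DCT/CNT and 0.37 in CCD and peaks at ZT 16.4 and ZT 17.2. The Usp2 peak was 1.10 h later in DCT/CNT (SE 0.741). In its other probe set, 1417169_at, the peaks lay further apart, at ZT 15.5 in DCT/CNT and ZT 13.1 in CCD (unadjusted p 0.0161, limma adjusted p 0.528 over all probe sets with 1 symbol). The Sgk1 peak was 0.268 h later in DCT/CNT (SE 1.83). None of these differences passed the test, which does not show that the segments kept the same time.

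Correlations over the 12 group means, each centred on its segment's mean, describe which members moved alike. The means of both segments come from the same times, and the genes share their arrays, so no p is given. Sgk1 and Usp2 had the highest r among the 36 pairs, at 0.79, then Hsd11b2 and Tsc22d3 at 0.76 and Nr3c2 and Nedd4l at 0.73. The lowest were Nr3c1 with Hsd11b2 at -0.73 and Nr3c2 with Tsc22d3 at -0.65. The fitted swing of Hsd11b2 behind this was below the median gene in both segments. Among all other genes, the profile of Usp2 was most like those of Coq10b (r 0.96), Wee1 (0.96) and Apobec3 (0.95). That of Tsc22d3 was most like those of Tmem64 (0.96), Tle3 (0.95) and Ptbp3 (0.95). Wee1 encodes a kinase that holds back entry into mitosis and is a known clock target. Tle3 encodes a transcriptional corepressor and Ptbp3 an RNA-binding protein.

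Around the 9 genes, 6 lists held 49 further pathway genes, of which 43 were measured and the rest were not analysed here. By limma's moderated F test 10 of the 43 were rhythmic in DCT/CNT and 2 in CCD, beside 6.57% and 2.47% of all genes. At an unadjusted p under 0.05 the counts were 21 and 15, with no count over all genes to set beside them. The F test over group means called 2 and 1, beside 2.47% and 0.643% of all genes. The rhythm difference was called for 0 of the 43, with 6 at an unadjusted p under 0.05 and 0 by the interaction over group means. Counts of rhythmic genes were 10 to 12 in DCT/CNT and 2 in CCD under the 4 scalings of the arrays described below.

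The list of other steroid-responsive genes held 5 of the 10 genes called in DCT/CNT, out of 9 measured, and both genes called in CCD. By the F test over group means 1 of the 9 was called in each segment. Zbtb16, a zinc finger repressor, had an amplitude of 1.02 (SE 0.19) at ZT 11.5 in DCT/CNT and of 1.29 (SE 0.19) at ZT 11.9 in CCD. Per1, a core clock gene that corticosteroids also induce, had 0.49 (SE 0.11) at ZT 10.6 in DCT/CNT and 0.54 (SE 0.11) at ZT 9.75 in CCD. In DCT/CNT, Ddit4, an inhibitor of mTOR signalling, was rhythmic with an amplitude of 0.44 (SE 0.054) and a peak at ZT 22.9. Pdk4, a kinase that restrains pyruvate oxidation, had 0.71 (SE 0.12) and peaked at ZT 4.21. The peaks of these genes were spread over the day and not gathered at those of Tsc22d3 and Usp2.

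Among receptor chaperones and coregulators, 2 of 6 were rhythmic in DCT/CNT and 0 of 6 in CCD, where 2 had an unadjusted p under 0.05. By the F test over group means 1 of the 6 was called in DCT/CNT and 0 in CCD. Fkbp5, a glucocorticoid-induced cochaperone of the receptors, had an amplitude of 0.34 (SE 0.079) with a peak at ZT 14.4 (limma adjusted p 0.0276). Its CCD amplitude was 0.33 (SE 0.079) with a peak at ZT 12.4 (limma adjusted p 0.0623), so the segments were close on either side of the threshold. The coactivator gene Ncoa2 peaked at ZT 4.90 with 0.21 (SE 0.048) in DCT/CNT. Neither steroid dehydrogenase passed the test. Hsd11b1, whose product regenerates active glucocorticoid, had an amplitude of 0.32 (limma adjusted p 0.136) in DCT/CNT and 0.41 (adjusted p 0.0926) in CCD.

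Of the transport effectors, 3 of 9 were rhythmic in DCT/CNT and 0 of 9 in CCD, where 2 had an unadjusted p under 0.05. By the F test over group means 0 of the 9 were called in either segment. Kcnj1, the potassium channel ROMK, had an amplitude of 0.19 (SE 0.036) with a peak at ZT 20.5 in DCT/CNT, and 0.14 (limma adjusted p 0.0926) at ZT 20.1 in CCD. The kinase genes Wnk1 and Wnk4, which regulate the sodium chloride cotransporter, had 0.19 (SE 0.046) at ZT 18.6 and 0.23 (SE 0.054) at ZT 21.9 in DCT/CNT. Scnn1a, the alpha subunit of ENaC, had an amplitude of 0.19 (SE 0.052) with a peak at ZT 20.5 in DCT/CNT and of 0.16 (SE 0.052) at ZT 20.8 in CCD. Neither Scnn1a rhythm passed limma's moderated F test (adjusted p 0.0701 and 0.215), although that in DCT/CNT did under 3 of the 4 scalings. All 4 of these genes had their lowest DCT/CNT group mean at ZT8, where segment markers were also low. The connecting tubule list averaged 12.0 at ZT8 and ZT12 and 12.4 at ZT20 in DCT/CNT, and the convoluted tubule list averaged 7.98 at ZT8 and from 9.26 to 10.0 at the other times. Its single pools spread widely, from 7.81 to 10.7, both at ZT16. In DCT/CNT 2 of the 3 connecting tubule markers and 1 of the 3 convoluted tubule markers were themselves called rhythmic, and their part in these rhythms was not tested. No gene of the Sgk kinase list or of the ubiquitin list was called in either segment by the limma moderated F test. In DCT/CNT an unadjusted p under 0.05 was reached by 1 of the 7 kinase genes and 5 of the 10 ubiquitin genes, and in CCD by 0 and 3. The share of all genes at this threshold was again not counted.

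**Figure D4:**
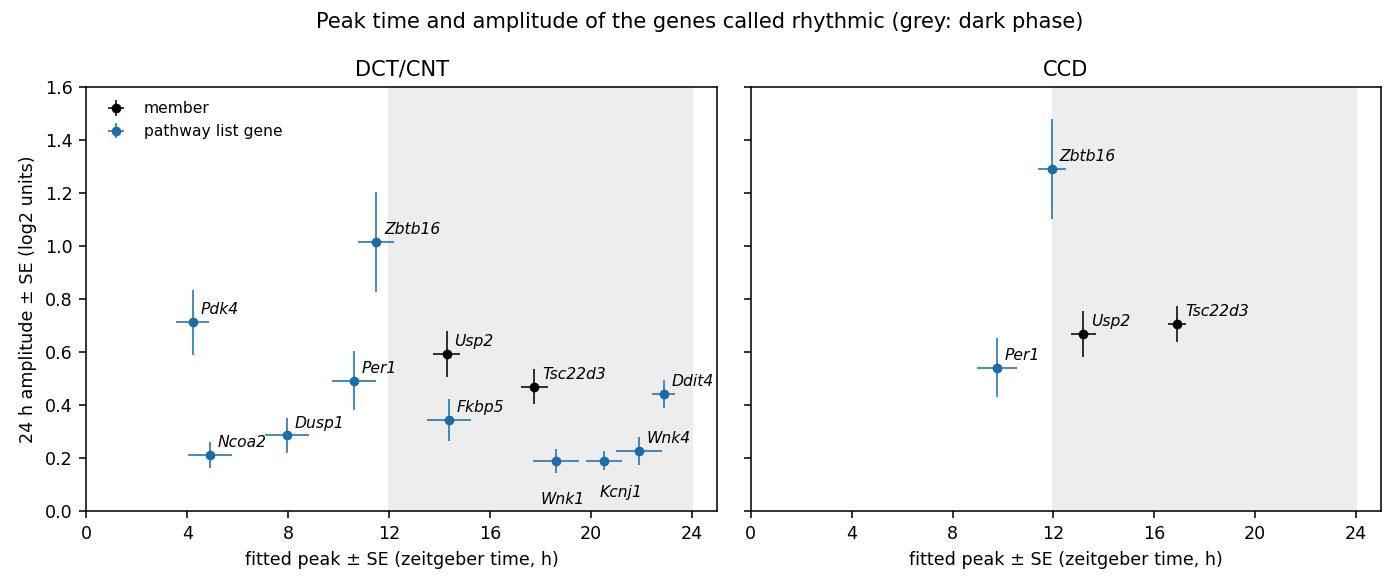
Fitted peak time in hours with its SE (x axis) against 24 h amplitude in log2 units with its SE (y axis) for the genes called rhythmic in DCT/CNT (left) and CCD (right). Black points are Tsc22d3 and Usp2, blue points are genes of the pathway lists, and grey marks the dark phase. Zbtb16 has the largest amplitude in both panels (1.02 and 1.29), and 4 genes are called in CCD.

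Between the segments, the mean level over the day differed for 8 of the 9 genes as deposited, a share near that of all genes, and 4 of the 9 kept their call under all 4 scalings of the arrays. Sgk1, Nedd4l and the main probe set of Tsc22d3 were lower in DCT/CNT than in CCD, whereas Usp2 was higher in DCT/CNT. Nr3c2 was lower in DCT/CNT as deposited, but not under every scaling. Differences are given as DCT/CNT minus CCD, averaged over the 6 times, and were tested with limma and adjusted over all genes. By this test 1 of the 9 was higher in DCT/CNT, where 30.4% of all genes were, and 7 of 9 were lower, where 47% of all genes were, both in the values as deposited. Among the brighter 9097 genes by mean over the arrays, which include all 9, only 717 (7.88%) were called higher. The median difference was -0.37 over the 9 genes and -0.13 over all genes, so most genes read lower in DCT/CNT as deposited. The values therefore depend on how arrays are brought to 1 scale. The median gene lay at -0.13 as deposited, 0.084 with equal array medians, 0.0101 after quantile normalisation and 0.00078 after cyclic loess. Called genes higher in DCT/CNT made up 39.2% of all called as deposited and 56.9%, 51.1% and 50.1% under these 3 scalings. Over all 4 scalings, 1 of the 9 was called higher and 3 were called lower every time, beside 18.9% and 22.2% of all genes. The 7 principal cell markers averaged 10.0 in DCT/CNT (9.86 to 10.2 per array) and 11.6 in CCD (11.5 to 11.8), and the 6 intercalated cell markers 11.3 (11.1 to 11.5) and 11.8 (11.6 to 11.9). Their part in the differences of the 9 genes was not tested. In bulk tubules, fewer cells of a type and less RNA per cell cannot be told apart.

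Nedd4l had the largest difference of the 9 as deposited and with equal medians, while those of Usp2 and Sgk1 were larger after quantile and cyclic loess normalisation. Its 12 DCT/CNT pools (9.73 to 10.16) lay below all 12 CCD pools (10.73 to 11.01), and the gap at each time ran from -0.89 to -1.08. The mean difference was -0.98 (SE 0.040), or 1.98-fold lower in DCT/CNT (limma adjusted p 1.29e-11). Relative to the median gene it was -0.86, and over the 4 scalings it ran from -0.98 to -0.54, called each time. All 6 Nedd4l probe sets were lower in DCT/CNT and called, by 0.59 to 1.61. Nedd4 differed less, by -0.17 (SE 0.034; limma adjusted p 0.000315). That direction turned to 0.23 after quantile normalisation and 0.22 after cyclic loess, both called, so no direction is given for Nedd4.

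Sgk1 was lower in DCT/CNT in every pool, with 11.39 to 12.30 (median 11.98) against 12.46 to 13.28 (median 12.88) in CCD. The gap ran from -0.76 at ZT20 to -0.999 at ZT16. The mean difference was -0.88 (SE 0.058), or 1.84-fold (limma adjusted p 1.67e-09), and -0.76 relative to the median gene. It stayed between -0.88 and -0.58 over the 4 scalings and was called in each.

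Tsc22d3 was lower in DCT/CNT at all 6 times by its main probe set, from -0.41 at ZT0 to -1.10 at ZT16, although the pools of the whole day overlap. The mean difference was -0.79 (SE 0.064), or 1.73-fold (limma adjusted p 1.94e-08), and -0.33 to -0.79 over the scalings. The other probe sets of Tsc22d3 did not follow. The rhythmic 1425281_a_at differed by 0.049 and was not called, and 1425557_x_at and 1444365_at were higher in DCT/CNT by 0.13 and 0.55, both called. Where in the transcripts these probe sets lie was not used here, and the main value speaks for that probe set alone.

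Usp2 went the other way. Its DCT/CNT pools lay above its CCD pools at each of the 6 times, by 0.14 at ZT4 to 0.73 at ZT0 in the group means. The mean difference was 0.37 (SE 0.060), or 1.29-fold (limma adjusted p 3.77e-05), and 0.49 relative to the median gene. It was 0.37 to 0.83 over the 4 scalings, called in each. By its other probe set the mean difference was 0.28, with DCT/CNT pools above CCD pools at 5 times and below them at ZT8.

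The receptors and the remaining members depended on the scaling. Nr3c2 was lower in DCT/CNT in every pool (at most 9.18 against at least 9.41), by -0.51 (SE 0.053; limma adjusted p 3.56e-07) as deposited. The difference was -0.30 with equal medians, but -0.041 and -0.024 after quantile and cyclic loess normalisation, where it was not called. Nr3c1 differed by 0.056 (SE 0.094; 95% interval -0.14 to 0.25; limma adjusted p 0.597) and became higher in DCT/CNT, by 0.27 to 0.51, under the other 3 scalings. Its 6 probe sets disagreed as deposited: 2 were called lower, the largest at -1.31, 2 were called higher, the largest at 0.54, and 2 were not called. Hsd11b2 differed by -0.087 (SE 0.034; limma adjusted p 0.0293). Its sign turned to 0.12 with equal medians and 0.13 after cyclic loess, both called. Cnksr3 was lower by -0.37 (SE 0.11; limma adjusted p 0.00649) as deposited and was not called under the other 3 scalings.

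**Figure D5:**
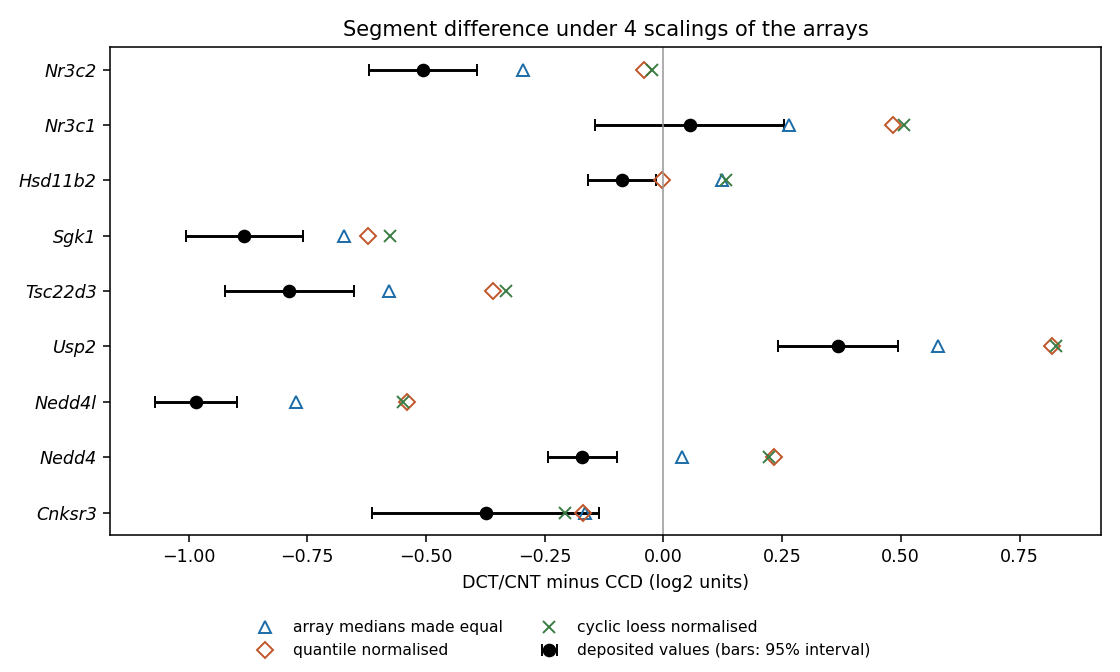
Segment difference, DCT/CNT minus CCD in log2 units (x axis), for each gene (y axis) with the deposited values (black, bars are 95% intervals) and after 3 other scalings (open triangles, diamonds and crosses). Sgk1, Tsc22d3 and Nedd4l stay below 0 and Usp2 above 0 under all 4, while the signs of Hsd11b2 and Nedd4 turn.

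Of the 43 pathway genes 6 were called higher and 31 lower in DCT/CNT as deposited, beside 30.4% and 47% of all genes. With equal medians, quantile and cyclic loess normalisation the counts were 10 and 20, 15 and 10, and 16 and 11. The shares of all genes were 43.8% and 33.2%, 33% and 31.6%, and 33.3% and 33.1%. Under all 4 scalings 6 were called higher and 10 lower, beside 18.9% and 22.2% of all genes. The sign of 20 turned under at least 1 scaling, as did that of 6412 of all 18194 genes. The 6 higher ones were Sgk2, Sgk3, Slc12a3, Wnk1, Wnk4 and Edn1. Sgk2 and Sgk3, the other kinases of the Sgk family, were higher in DCT/CNT by 0.51 (SE 0.051) and 0.42 (SE 0.050), against the lower Sgk1. Pdpk1, the kinase that activates all 3, was lower by -0.72 (SE 0.043), and -0.24 at the least over the scalings.

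Slc12a3, the thiazide-sensitive cotransporter and itself a marker of the convoluted tubule, was higher in DCT/CNT by 5.49 (SE 0.35), and Wnk1 and Wnk4 by 1.21 (SE 0.041) and 0.54 (SE 0.052). Fxyd4, a subunit that modulates the sodium pump, was lower by -2.17 (SE 0.045), and Scnn1b, the beta subunit of ENaC, by -0.55 (SE 0.047). Both also served as principal cell markers above. Scnn1a differed by -0.17 (SE 0.054) as deposited and was called higher, at up to 0.31, under another scaling. In the ubiquitin list, 8 of 10 were called lower as deposited, where 47% of all genes were. Itch, a ligase of the Nedd4 family (-0.83, SE 0.058), and Ndfip1, its adaptor (-0.52, SE 0.042), were called lower under all 4 scalings. Fkbp4, a receptor cochaperone (-0.95, SE 0.056), the elongation factor gene Ell (-0.41, SE 0.083) and H6pd, which supplies cofactor to Hsd11b1 (-0.68, SE 0.065), also kept their calls. Rictor (-0.38), Ncoa1 (-0.49), Hsp90aa1 (-0.29), Ywhah (-0.39) and Ywhab (-0.30) were called lower as deposited, and each lost its call under at least 1 other scaling.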

How the data were processed

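The deposited table held log2 values made by the authors with RMA, per the submitters' processing notes; version, array batches and whether both segments were normalised in 1 run are not given in the sources used here. Values were used as deposited. Arrays have no read depth, so their number limits the precision. Of 45101 probe sets, 34958 carried 1 gene symbol in the platform's probe table, 932 several and 9211 none; 34754 of the first matched the reference gene table (GRCm38.p6), with 0 symbols updated. Tests ran over 18194 genes with limma 3.58.1 in R 4.3.3 and Benjamini-Hochberg adjustment.

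The rhythm model held a mean and a 24 h cosine and sine for each segment, and left 18 residual degrees of freedom per gene. Segment differences came from 12 group means (12 residual degrees of freedom). Amplitude and peak SEs follow the delta method. Scripts were tested on simulated data. The 2 pools of a group correlated with r from 0.988 to 0.995, and 0 arrays were identical.

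Named were all 9 members, up to 4 called genes a list with the smallest adjusted p, Scnn1a, and the 3 genes most correlated with each rhythmic member. Fkbp5, Ell, Hsd11b1, Kcnj1, Wnk4 and Edn1 are named beyond that rule, chosen after their values were seen. Members, lists and markers were chosen with earlier results of these data known. Counts over all 4 scalings, the common rhythm and the spaced half-site pair were added after the data were seen.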

Additional observations from a re-analysis of the deposited data

How the results depend on the processing

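The rhythm calls of Tsc22d3 and Usp2 held in both segments in all 24 omissions of an array, all 6 omissions of a time and all 11 other settings. The 9 genes gave 2 or 3 rhythm calls per segment and 0 rhythm differences throughout. The labels do not say that pool numbers pair samples, and over 66 pairs of groups deviations of pools with the same number correlated from -0.206 to 0.173. With the pool number as a replicate block, 1053 genes were rhythmic in DCT/CNT (1195 without), 368 in CCD (449) and 2 differed (2); 4678 were higher and 7735 lower in DCT/CNT, and no call of the 9 genes changed. All-gene rhythm counts moved with array weights to 788 in DCT/CNT and 846 in CCD, with each segment fitted alone to 226 in DCT/CNT, with the F test over means to 450 and 117, with the common rhythm to 1912, and with trended robust variances to 702 in CCD. Omissions gave 565 to 1329 in DCT/CNT, 132 to 477 in CCD (242 to 297 without either ZT8 or ZT12 pool or the first ZT16 pool of CCD) and 1 to 4 rhythm differences (4 without the first ZT20 pool of DCT/CNT or the second ZT12 pool of CCD). The 2 rhythm differences became 1 after quantile normalisation, 6 in the brighter genes only and 4 with trended robust variances. Genes higher in DCT/CNT numbered 717 of the 9097 brighter genes (7.88%), and among all probe sets 9778 were higher and 16086 lower. Of the 9 genes, equal medians, quantile and cyclic loess normalisation called 3, 3 and 4 higher and 4, 3 and 3 lower. Directions turned for Hsd11b2 (0.12 with equal medians, 0.13 with cyclic loess), Nedd4 (0.039, 0.23 and 0.22), probe sets of Nr3c1 (-1.31 and -0.42) and Tsc22d3 (0.049, 0.13 and 0.55), and the phase of the dim Tsc22d3 probe set 1444365_at in DCT/CNT (amplitude 0.22, not called). The Hsd11b2 segment call was lost without any of 7 arrays (the limma adjusted p then reached 0.0614 at most) and when ZT0, ZT4, ZT12 or ZT20 was left out, and that of Cnksr3 without ZT12 or ZT16 (limma adjusted p up to 0.0625). The cause was not tested.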
